A study of Equus caballus with 14 samples.

Results

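RELA, TNF, IL6 and IL10 are 4 genes measured here in the mediastinal lymph nodes of horses, and none of them differed between horses with recurrent airway obstruction (RAO) and control horses by more than the spread between horses. RELA encodes p65, a subunit of NF-κB, and the others encode cytokines. The members were taken by name, through the transcript accession that each array probe carries. They comprised 8 probes of 43603 on the array, of which 1251 could be named, for 599 genes. RELA, TNF and IL6 each had 1 probe and IL10 had 5.

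NF-κB is a family of transcription factors held inactive in the cytoplasm by inhibitor proteins. Signals from Toll-like receptors and from the receptors of interleukin-1 and TNF release it, and p65 then enters the nucleus and activates genes for cytokines, chemokines and adhesion molecules. TNF is both an inducer and a target of this pathway, IL6 is a target that drives the acute phase response, and IL10 is a cytokine that restrains inflammation. The activity of p65 is set largely by its location and modification, which an mRNA measurement does not record.

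The study compared nodes draining the lungs of 7 RAO-affected horses (numbered 2, 4, 6, 8, 10, 12 and 14; labelled heaves) with those of 7 control horses (numbered 1, 3, 5, 7, 9, 11 and 13; labelled healthy). All were adults of mixed breed, without genetic modification. Both groups had been stabled and fed dusty hay for 14 days before sampling, so the comparison is of susceptible with resistant horses under the same exposure. Per the methods, the RAO-affected horses were older on average, so age and disease cannot be told apart. The labels pair no horses.

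The RELA probe was located through the accession ENSECAT00000014744 that the study lists with its RT-PCR primers. These primers are shown because the study designed them against the RELA transcript whose accession the array probe carries. They are not the probe that was measured here. They are printed 5′ to 3′ in lower case, each of 20 bases.
RELA forward primer: gtcgcctgtcctttctcatc
RELA reverse primer: tgtcctctttctgcaccttg
TNF was located as NM_001081819, IL6 as NM_001082496 and IL10 as NM_001082490. All 8 probes were well above background on every array, and none was saturated.

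Each horse had 1 array with 1 colour. The probes well above background numbered 32854 to 39809 on control arrays and 32696 to 39947 on RAO-affected arrays. Between 1439 and 2613 probes per array were saturated. There were 4 slides, and horses of both groups were present on every one. The slide numbered 1, with RAO-affected horse 4 and control horses 3 and 5, stood apart: it was scanned 16 days from the others, and its arrays correlated at 0.923 to 0.959 with the rest, against 0.959 to 0.99 among slides 2 to 4. The results of the 4 genes below are therefore also given with slide as a block or without slide 1 where that changes them. For the listed genes, calls at an unadjusted p that the block changed are named. The number of arrays limits the precision.

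Across 38674 probes tested with limma, unpaired and two-sided, 569 (1.47%) differed at least 2-fold with an unadjusted p under 0.05. Of these, 425 (1.1%) were higher in RAO-affected horses and 144 (0.372%) were lower. At an unadjusted p under 0.05 alone, 2177 probes (5.63%) differed. None passed after Benjamini-Hochberg adjustment in limma, and the smallest adjusted p was 0.873. None of the 4 genes was among the probes that passed at an unadjusted p.

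No difference in RELA was detected between the groups. On the log2 scale of quantile-normalized signal, RELA in the RAO-affected horses was lowest at 7.30 (horse 14), had a median of 8.42 and was highest at 9.54 (horse 2). In the control horses it ran from 7.63 (horse 7) through a median of 8.33 to 8.79 (horse 5). The groups overlapped, with 2 RAO-affected horses above the highest control horse and 1 below the lowest. The RAO-affected mean was 8.43 ± 0.72 (SD, n = 7) and the control mean 8.30 ± 0.34 (SD, n = 7). RELA was therefore 0.13 higher on the log2 scale in the RAO-affected horses (SE 0.29, 95% confidence interval -0.49 to 0.75, limma adjusted p = 0.987). As a fold the interval was 0.713 to 1.69. A two-sided exact permutation test of the group labels gave p = 0.67.

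The RELA difference was not the same on every slide. It was 0.40 on slide 1, 0.97 on slide 2, 0.08 on slide 3 and -0.73 on slide 4, each from 3 or 4 horses and so with no test. With slide as a block it was 0.17 (95% confidence interval -0.46 to 0.79). Without RAO-affected horse 2, the horse with the highest signal, the difference was -0.05. In bulk tissue a lower signal cannot be told apart as fewer cells of a type or as less RNA per cell.

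**Figure D1:**
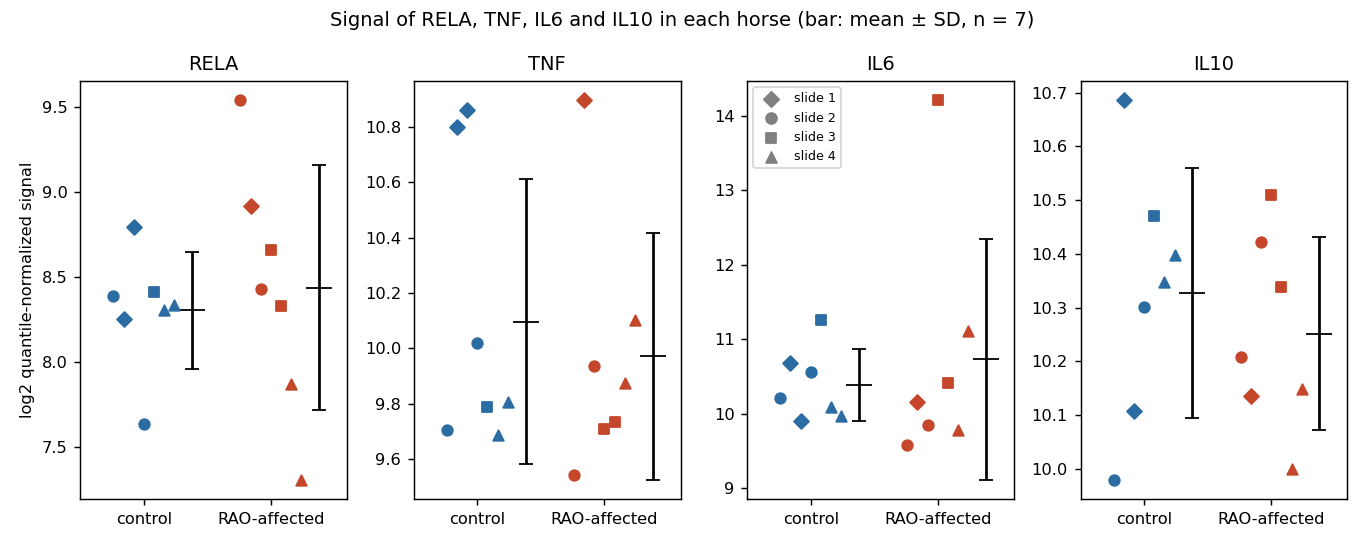
Log2 quantile-normalized signal (vertical axis, a separate scale for each gene) of RELA, TNF, IL6 and IL10 in control and RAO-affected horses (7 each), with symbols for the 4 slides and bars for mean ± SD (n = 7). The groups overlap for all 4 genes, the 3 slide 1 horses lie at 10.80 to 10.90 for TNF, and RAO-affected horse 8 lies at 14.22 for IL6.

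For TNF, the cytokine that both triggers and follows NF-κB, no difference was detected between the groups either. Its log2 signal ran from 9.54 through a median of 9.87 to 10.90 in the RAO-affected horses. In the control horses it ran from 9.69 through a median of 9.81 to 10.86. The means were 9.97 ± 0.45 and 10.10 ± 0.51 (SD, n = 7 each). The log2 difference was -0.12 (SE 0.25, 95% confidence interval -0.66 to 0.41, limma adjusted p = 0.987, and p = 0.693 in the exact permutation test). The groups overlapped, with RAO-affected horse 4 above the highest control horse and horse 2 below the lowest.

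The TNF values lay apart by slide. The 3 horses of slide 1 had log2 signals of 10.80, 10.86 and 10.90, and the other 11 horses lay between 9.54 and 10.10. The slide 1 horses were of both groups. TNF was not particular in this, since 6741 probes (17.4%) had all slide 1 arrays above the other 11, and 13008 (33.6%) had them all above or all below. With slide as a block the group difference was 0.04, with an interval of -0.18 to 0.25, and without slide 1 it was 0.02. Within slides it was 0.07, -0.12, -0.07 and 0.24 on slides 1 to 4.

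IL6, an inducer of the acute phase response and a classical NF-κB target, had the widest spread of the 4 genes in the RAO-affected horses. Its log2 signal there was lowest at 9.57, had a median of 10.16 and was highest at 14.22. In the control horses it ran from 9.90 through a median of 10.21 to 11.26. The top value belonged to RAO-affected horse 8, and the next highest of that group was 11.11 (horse 14). In the same group, 3 horses lay below the lowest control horse. The means were 10.73 ± 1.62 and 10.38 ± 0.48 (SD, n = 7 each), and the medians were close to each other.

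The IL6 log2 difference was 0.35 (SE 0.60, 95% confidence interval -0.94 to 1.64, limma adjusted p = 0.987, and p = 0.787 in the exact permutation test). This was 1.27-fold, with an interval of 0.520 to 3.11. It rested on horse 8: without that horse the RAO-affected mean was 10.15 with an SD of 0.56 (n = 6), and the difference turned to -0.23. With slide as a block the difference was 0.11 (95% confidence interval -1.06 to 1.27). It was 1.05 on slide 3, which held horse 8, and -0.13, -0.67 and 0.41 on slides 1, 2 and 4.

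IL10, the cytokine that limits NF-κB driven inflammation, varied least. Its brightest probe ran from 9.999 through a median of 10.21 to 10.51 in the RAO-affected horses. In the control horses it ran from 9.98 through a median of 10.35 to 10.69. No RAO-affected horse lay outside the control range. The means were 10.25 ± 0.18 and 10.33 ± 0.23 (SD, n = 7 each), a log2 difference of -0.08 (SE 0.12, 95% confidence interval -0.34 to 0.19, limma adjusted p = 0.987, and p = 0.504 in the exact permutation test).

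The other 4 IL10 probes gave log2 differences of -0.11, -0.07, -0.17 and -0.10. All 5 probes were thus lower in the RAO-affected mean, and none passed the exact permutation test (the lowest p was 0.258). The probes target 1 transcript and are not independent: their correlations over the 14 horses were 0.94 to 0.98 in 10 pairs. With slide as a block the brightest probe differed by -0.10, with an interval of -0.36 to 0.16. Within slides it differed by -0.26, 0.17, -0.05 and -0.30 on slides 1 to 4, so slide 2 went the other way. IL10 was the gene bounded most tightly without the block, and its fold interval was 0.791 to 1.14.

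**Figure D2:**
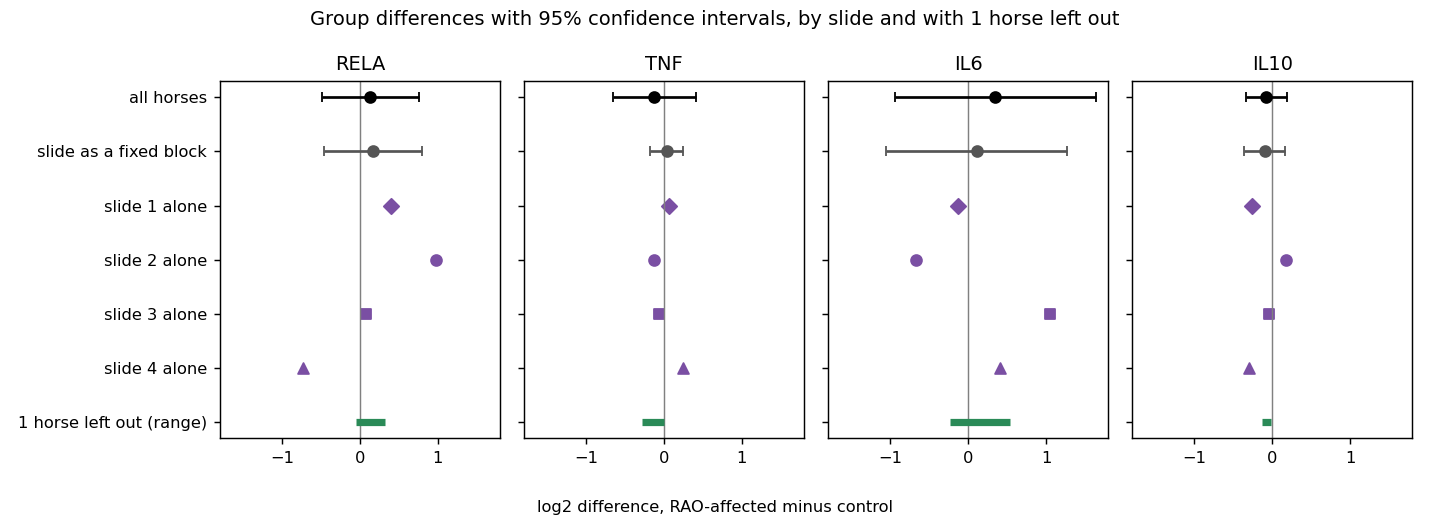
Log2 difference of RAO-affected minus control horses (horizontal axis) for RELA, TNF, IL6 and IL10, over all horses and with slide as a block (points with 95% confidence intervals), within each slide, and as the range when 1 horse is left out (bar). Every interval includes 0. The IL6 range with 1 horse left out runs from -0.23 to 0.54.

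Whether the 4 genes varied together among horses was asked after group and slide had been removed from each by least squares, which left 9 residual degrees of freedom. Of 6 pairs, 1 passed. RELA and TNF ran opposite to each other (Pearson r = -0.85, n = 14, permutation p = 0.00205, adjusted over 6 pairs p = 0.0123). Spearman's rho was -0.62 (permutation p = 0.0501, adjusted p = 0.301), which did not pass. In RAO-affected horse 2 the residual was 0.96 for RELA and -0.28 for TNF. In control horse 7 it was -0.78 for RELA and 0.24 for TNF, and in RAO-affected horse 14 it was -0.73 and 0.22. These 3 horses lay farthest out, and the other 11 lay nearer the middle.

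The relation rested on few horses. Without the 2 horses farthest from the RELA median r was -0.58 (n = 12, permutation p = 0.132, adjusted p = 0.793). With 1 horse left out, r ran from -0.92 to -0.72, and the adjusted call held in 11 of 14 cases. It was lost without control horse 7 (r = -0.78, adjusted permutation p = 0.077), without RAO-affected horse 2 (r = -0.72, adjusted permutation p = 0.176) and without RAO-affected horse 14 (adjusted permutation p = 0.0696). No slide held 6 horses, so no r was computed within slides.

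Slide and scaling both bore on it. With slide left in the data r was 0.05, and with nothing removed it was 0.03. Within the control horses alone r was 0.30 (n = 7, exact permutation p = 0.477) and within the RAO-affected horses -0.08 (n = 7, exact permutation p = 0.845). Both of those still held the slide 1 shift of TNF. Without slide 1 and with only group removed, a setting chosen after seeing the data, r was -0.90 (n = 11, adjusted permutation p = 0.00324). Under 75th percentile scaling, which shifts each array by a constant and leaves its distribution alone, r was -0.58 (adjusted permutation p = 0.468).

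**Figure D3:**
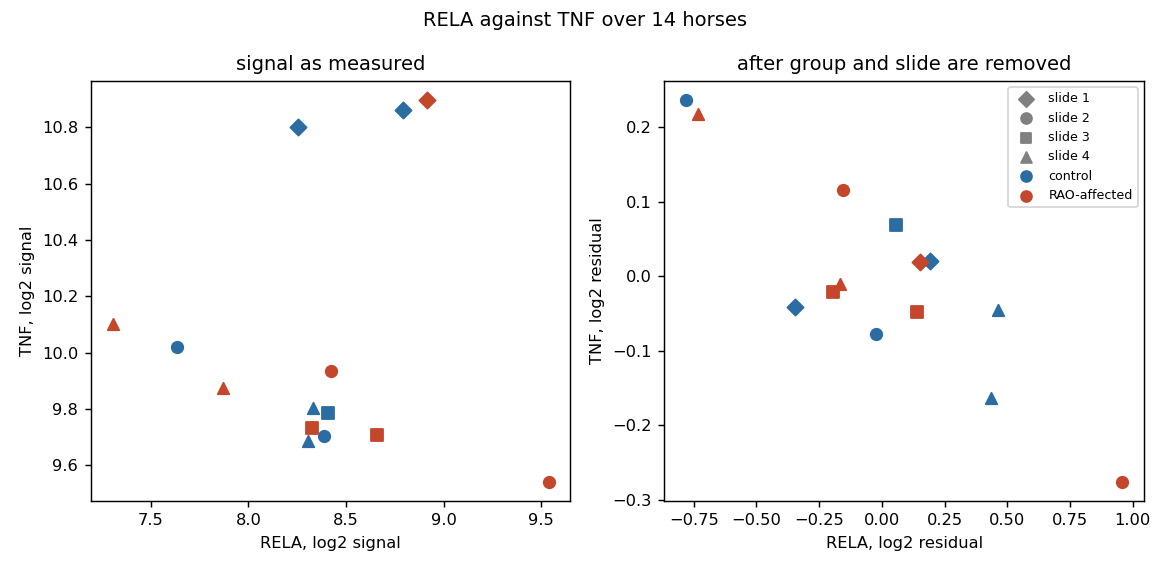
TNF against RELA over the 14 horses, as log2 signal (left) and as log2 residual after group and slide are removed (right), with colours for group and symbols for slide. On the left the 3 slide 1 horses form a separate band at a TNF signal of 10.80 to 10.90, and on the right r is -0.85, with RAO-affected horse 2 at lower right.

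The number of saturated probes on an array was related to TNF, and the relation with RELA did not pass after adjustment. After group and slide were removed, TNF was lower on arrays with more of them (r = -0.84, n = 14, permutation p = 0.002, adjusted over 8 relations p = 0.016). Spearman's rho was -0.88 (permutation p = 0.00052, adjusted p = 0.00416), and without the 2 arrays farthest from the median number r was -0.63. For RELA r was of the other sign (r = 0.68, permutation p = 0.0299, adjusted p = 0.12, rho = 0.60 with adjusted permutation p = 0.24). Without the 2 farthest arrays the RELA r was 0.28. The 2 arrays with the fewest saturated probes were those of control horse 7 (1439) and control horse 9 (1774). The other 6 relations of the 4 genes with saturated probes or with probes well above background had adjusted p from 0.669 upward.

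With the number of saturated probes removed as well, a setting chosen after seeing the data, the r of RELA with TNF was -0.71 (n = 14, permutation p = 0.0322, adjusted p = 0.193). Among 38036 probes, 483 (1.27%) had an r with RELA at least as far from 0 as TNF did, and 735 (1.93%) had one with TNF at least as far from 0 as RELA did.

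**Figure D4:**
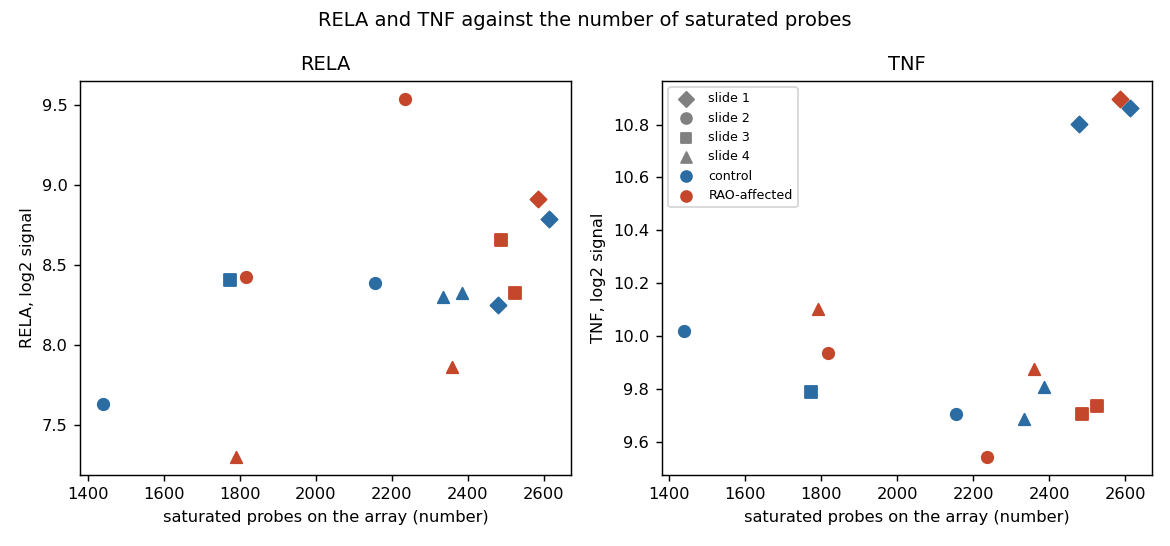
Log2 signal of RELA (left) and TNF (right) against the number of saturated probes on the horse's array, with colours for group and symbols for slide, before group and slide are removed. Control horse 7, with 1439 saturated probes, has a RELA signal of 7.63 and a TNF signal of 10.02, and the slide 1 arrays are set apart for TNF.

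The other 5 pairs did not pass. RELA and IL6 had r = -0.23 (permutation p = 0.509, adjusted p = 0.882) and rho = -0.30. RELA and IL10 had r = -0.04 (permutation p = 0.92) and rho = 0.03. TNF and IL6, a pair of cytokines that share NF-κB as an activator, had r = 0.19 (permutation p = 0.588) and rho = 0.05. TNF and IL10 had r = 0.00 (permutation p = 0.996) and rho = -0.12. IL6 and IL10 had r = 0.26 (permutation p = 0.472) and rho = 0.30. All adjusted p-values for these pairs, of either kind, were 0.767 or higher.

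RAO-affected horse 8 weighed on the IL6 pairs. Without it, RELA and IL6 had r = -0.71 (n = 13, permutation p = 0.0307, adjusted p = 0.0922) and TNF and IL6 had r = 0.66 (n = 13, permutation p = 0.0533, adjusted p = 0.107). Neither passed after adjustment. Without the 2 horses farthest from the median of the first gene, these pairs had r = -0.04 and r = -0.04, and the remaining pairs had r = -0.09 (RELA and IL10), 0.02 (TNF and IL10) and 0.18 (IL6 and IL10).

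The genes most like each member were ranked by the same residual r over 14 horses among 526 other named genes. For RELA they were SELPLG, the leukocyte ligand of P-selectin (r = 0.93), GM2A, a lysosomal lipid-binding activator (0.90), POLD3, a DNA polymerase delta subunit (0.90), SMPD5 (0.88) and C14H5orf46 (0.87). The most opposite were the natural killer receptor genes LY49C (-0.93) and LY49E (-0.91). Each of these 7 values was weakest without RAO-affected horse 2, and the weakest was 0.75. These are descriptions over 1 set of 14 arrays. Over all probes r with RELA ran from -0.68 at the 5th percentile to 0.71 at the 95th.

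For TNF the most alike were OR4C11E, an olfactory receptor gene (r = 0.86), LY49C (0.85), GPR137C (0.85), PDE1B, a cyclic nucleotide phosphodiesterase (0.84), and OAS3, an interferon-induced antiviral enzyme (0.84). The most opposite were E2F7, a cell cycle repressor (-0.93), and POLD3 (-0.93). LY49C and POLD3 thus stood on both the RELA and the TNF list, with the signs turned. With RELA and TNF themselves at r = -0.85, this overlap is no separate result. With 1 horse left out, the weakest value on the TNF list was 0.70 (LY49C without RAO-affected horse 2). Over all probes r with TNF ran from -0.68 at the 5th percentile to 0.69 at the 95th.

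For IL6 the most alike were CSF3, which encodes G-CSF (r = 0.96), STAR, a cholesterol transporter (0.91), SPI2 (0.88), IL1B, which encodes interleukin-1β (0.85), and CLDN10, a tight junction claudin (0.83). The most opposite were ALCAM, an adhesion molecule (-0.87), and IL12B, the p40 subunit of interleukin-12 (-0.81). Several of these rested on RAO-affected horse 8. Without it, CSF3 stood at 0.80 and STAR at 0.88, whereas SPI2 stood at 0.35, IL1B at 0.14, CLDN10 at 0.69, ALCAM at -0.56 and IL12B at -0.34.

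For IL10 the most alike of those reported were LOC100033916, a secretoglobin gene listed under the synonym SCGB1A1 (r = 0.78), IL4, the type 2 helper cytokine (0.68), NFYB, a transcription factor subunit (0.66), and IL2, the T cell growth factor (0.63). The most opposite were CD68, a macrophage lysosomal protein (-0.86), and ILT11A (-0.74). Without control horse 3, LOC100033916 stood at 0.58, CD68 at -0.73 and ILT11A at -0.41.

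The remaining pathway genes were read from lists of NF-κB components and targets, of which only part could be located. RELA was the only located subunit of 5, and none of the 12 listed inhibitors and kinases of the pathway was analysed here. Of the upstream receptors and adaptors, 8 of 16 were located, and 2 were higher in RAO-affected horses at an unadjusted p under 0.05, against 2.86% of all probes. CD14, the lipopolysaccharide co-receptor, was 1.11 higher on the log2 scale (exact permutation p = 0.0117, limma adjusted p = 0.873). TLR4, the lipopolysaccharide receptor, was 0.58 higher (exact permutation p = 0.00816, limma adjusted p = 0.873). None was lower, and the median log2 difference of the 8 was 0.16, against -0.03 over all probes.

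Of the NF-κB target genes, 21 of 29 were located, and 6 were higher and 1 lower at an unadjusted p under 0.05. The background was 2.86% of probes higher and 2.76% lower. The largest difference was in TNFAIP6, a TNF-induced hyaluronan-binding protein, at 2.48 on the log2 scale (exact permutation p = 0.00641). Its probe was well above background in 6 of 7 control horses. Under normexp background correction TNFAIP6 differed by 1.73 and CXCL8 by 1.93, so TNFAIP6 was not the largest there. CXCL8, the neutrophil chemokine interleukin-8, was 2.14 higher (exact permutation p = 0.0192). CXCL6 (1.32) and CXCL1 (1.21), which also draw neutrophils, MMP9, a gelatinase (1.32), and SOD2, the mitochondrial superoxide dismutase (0.65), made up the rest. SOD2 was saturated on 3 of the 14 arrays and CD14 on 1, where the signal is only a lower bound. IL12B differed by -1.44 (exact permutation p = 0.0513), and its probe exceeded background clearly in 4 of 7 RAO-affected horses. None of the 7 passed after adjustment. With 1 horse left out, CXCL1 was past the unadjusted limma threshold in 6 of 14 fits and IL12B in 7. CXCL8, TNFAIP6, CXCL6, MMP9 and SOD2 were past it in all 14.

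In 16 of the 21 target genes the RAO-affected mean was the higher. The share of all probes with a higher RAO-affected mean is not given here, so this count is only a description. The median log2 difference over all 21 was 0.65, against -0.03 over all probes. Among those that did not pass, IL1B differed by 0.92, PTGS2, the inducible cyclooxygenase, by 0.99, and CXCL10, an interferon-induced chemokine, by -0.76. The study had singled out some of these genes, such as TNFAIP6 and CXCL8, on these same samples, so the list is not independent evidence of a direction. With slide as a block 7 were higher and 0 lower. That fit put 4600 of all probes (11.9%) past the same threshold in either direction. In it CXCL1 (1.04) and IL12B (-1.11) were no longer past the limma threshold, whereas IL1RN (0.77) and PTGS2 (0.69) were. Without RAO-affected horse 8, 5 were higher and 0 lower, and the median difference was 0.42. The fit without that horse put 1647 of 38674 probes past the threshold in either direction.

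Some macrophage and endothelial markers were also higher in RAO-affected horses at an unadjusted p under 0.05, against 2.86% of all probes, and none passed after adjustment. Of the macrophage markers, 3 of 5 were located, and 2 were higher. CD163, a haemoglobin scavenger receptor, ran from 8.82 to 11.08 in the control horses and from 11.11 to 14.25 in the RAO-affected horses, without overlap, as did 0.0646% of all probes. CD14 belongs to this list too, and CD68 differed by 0.04 and did not pass. The summed signal of the macrophage markers, as log2, overlapped at 15.04 to 16.80 in the RAO-affected and 14.44 to 16.92 in the control horses. Of the endothelial markers, 4 of 5 were located, with SELP 1.64 and CAV1 1.21 higher (exact permutation p = 0.00932 and p = 0.0361). PECAM1 (0.45) and SELE (1.46) did not pass in limma. With slide as a block CAV1 (1.16) was no longer past the unadjusted limma threshold. The summed endothelial signal was 14.36 to 16.74 against 13.48 to 15.39, again with overlap. LOC100033916, a gene of the airway secretoglobin family, differed by 1.33 and was past the unadjusted limma threshold. The part of these cells in the target gene differences was not tested. No listed neutrophil, B cell or dendritic cell marker was located.

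**Figure D5:**
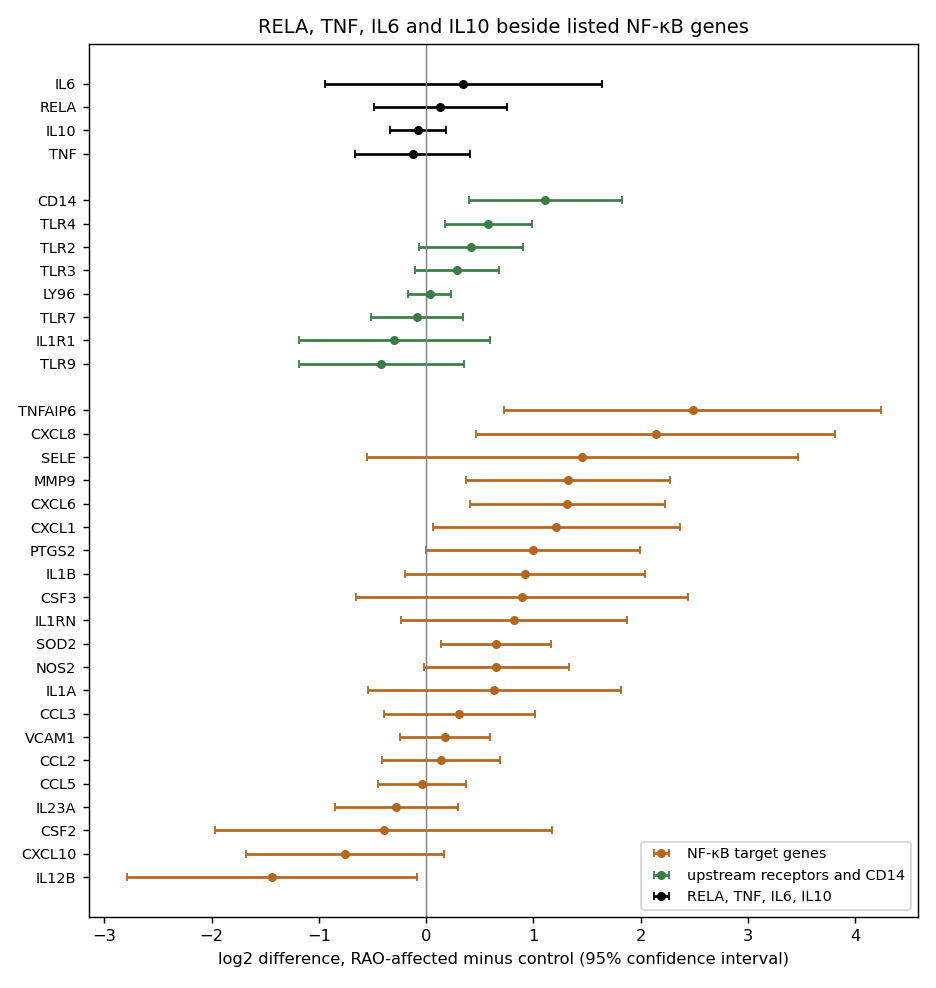
Log2 difference of RAO-affected minus control horses with 95% confidence intervals (horizontal axis) for 21 located NF-κB target genes, 8 upstream genes and RELA, TNF, IL6 and IL10. TNFAIP6 (2.48) and CXCL8 (2.14) lie farthest right, and the 4 named genes lie between -0.12 and 0.35.

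The partners of the cytokines were located in part. In the TNF family 2 of 17 genes were located. CD40, a receptor on antigen-presenting cells, differed by -0.43 (exact permutation p = 0.0501, limma adjusted p = 0.874) and was past the unadjusted limma threshold. It lost that call under 75th percentile scaling and under normexp background correction, and kept it in 5 of 14 fits with 1 horse left out. In the IL-6 family 3 of 14 were located: beside IL6 itself, the kinase JAK2 and the feedback inhibitor SOCS3 differed by 0.04 each and did not pass. Of the listed acute phase genes, which IL-6 raises or lowers in liver, 2 of 15 were located. These were ALB (-0.17) and TF (0.06), which are lowered rather than raised in that response, and neither passed. IL10 was the only located gene of 10 in its family.

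RAO-affected horse 8, which set the IL6 range, was also at the top of its group for 9 of the 21 target genes. Its CSF3 signal was 12.23, against 6.53 to 9.80 in the other RAO-affected horses. Its IL1B signal was 14.37, against 10.16 to 11.51. The remaining 7 of these were CSF2, CXCL8, IL1A, IL1RN, PTGS2, SOD2 and TNFAIP6. Among the RAO-affected horses IL1A was well above background in only 2 and CSF2 in 5. The share of all probes with horse 8 at the top of its group is not given here, so the count is only a description. It was at the bottom of its group for CXCL10 (13.15) and IL12B (3.05). RAO-affected horse 4 led in 7 target genes, horse 10 in 2, horses 2, 12 and 14 in 1 each, and horse 6 in 0. Horse 4 was the only RAO-affected horse on slide 1, whose arrays all lay above the other 11 for 17.4% of all probes. The part of the slide in its count was not tested. The IL6 peak of horse 8 was thus accompanied by CSF3 and IL1B, whereas its RELA signal (8.66) and TNF signal (9.71) lay within the range of the other RAO-affected horses. For every IL10 probe horse 8 was the highest of its group but below the highest control horse. With the brightest IL10 probe it stood at 10.51, against 10.42 in the next RAO-affected horse and 10.69 in the highest control horse.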

How the data were processed

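Total RNA from the mediastinal lymph node tissue of each horse was amplified, labelled with Cy3 and hybridized to equine Agilent arrays. The authors deposited scanner output in which each spot has an intensity, background-subtracted by Feature Extraction (10.5.1.1 per the file headers, 9.1 per the submitters' processing notes) and with no scaling across arrays. A second deposited file is a table of ratios, each a quantile-normalized value over its probe's median (column medians 0.973 to 1.02). Log2 of that table, used as an alternative, correlated with the centred scanner values at 0.999 or higher. The genome build is not given in the sources used here.

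Control spots (1417 per array) and flagged spots (19 to 177) were left out, spots of a probe averaged, and log2 intensities quantile normalized, as the methods name. Saturated spots were kept. The filter kept probes that 4 or more of the 14 arrays measured well above background, and these were tested with limma 3.58.1 in R 4.3.3 (lmFit, eBayes, two-sided, Benjamini-Hochberg adjustment over all probes tested). The methods' test was paired, but the labels pair no horses, so fits were unpaired. Probes were named through a RefSeq gene table of the horse (1231) or the study's primer table (20), together 2.87% of probes. The brightest probe represented a gene. Exact permutation tests used all 3432 splits (smallest p 0.000583). Correlations were tested with 100000 permutations, each set adjusted again for group and slide. The fits and the permutations were tested on simulated data. Python 3.11.15 with numpy 2.4.6, scipy 1.17.1 and pandas 2.3.3 was used.

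Genes named in the text are the 4 members, the located genes of the lists, and for each member the 5 most alike and 2 most opposite genes. For IL10, 1 of the 5 is not reported here. Members and lists were chosen with earlier results of these data known. Alternatives were 75th percentile scaling, normexp (offset 50), no filter, a filter at all 14 arrays, slide as a block, the ratio table, the methods' t-test run unpaired, the mean over a gene's probes, no slide 1, and each horse left out. Settings for the saturated probes, for slide 1 with group only, and for the listed genes were chosen after seeing the data. No RNA quality value per horse was used here.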

Additional observations from a re-analysis of the deposited data

Results flagged for a closer look

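The TNF signal of RAO-affected horse 4 was 10.90 on the log2 scale, and the nearest other RAO-affected horse was at 10.10. The gap was 0.586 of the range of the group, above Dixon's critical value for 7 horses at the 95% level. This horse was the only RAO-affected one on slide 1, where the control horses 3 and 5 had 10.80 and 10.86. The part of the slide in the value was not tested.

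The IL6 signal of RAO-affected horse 8 was 14.22, and the nearest other RAO-affected horse was at 11.11. The gap was 0.669 of the range. Horse 8 shared slide 3 with RAO-affected horse 10 (10.41) and control horse 9 (11.26). Neither RELA nor IL10 had a horse past this limit. Chance marks about 1 in 20 groups in this way.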

How the results depend on the processing

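The 4 group differences passed no test under any setting run, and the direction of the RELA, IL6 and IL10 differences held in every alternative other than those that left out 1 horse. TNF turned to 0.04 with slide as a block and to 0.02 without slide 1. With 1 horse left out, the log2 difference ran from -0.05 to 0.32 for RELA, -0.28 to 0.00 for TNF, -0.23 to 0.54 for IL6 and -0.13 to -0.02 for IL10. RELA turned without RAO-affected horse 2, TNF without control horse 5 and IL6 without RAO-affected horse 8. The cause was not tested.

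The r of RELA with TNF lost its adjusted call with Spearman's rho (-0.62), under 75th percentile scaling (-0.58) and without the 2 farthest horses (-0.58). It also lost that call with the number of saturated probes per array removed (-0.71) and within the RAO-affected horses (-0.08). It turned with group only removed (0.05), with nothing removed (0.03) and within the control horses (0.30). It held with normexp (-0.81), the ratio table (-0.85) and without slide 1 (-0.92), and ran from -0.92 to -0.72 with 1 horse left out.

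The pairs that passed no test turned sign as follows. RELA with IL10 gave 0.10 with the number of saturated probes removed, 0.25 without slide 1 and group only, 0.03 as rho and 0.06 with group only. It also gave 0.03 with nothing removed, 0.26 in the RAO-affected horses, 0.14 under 75th percentile scaling and 0.20 without slide 1. TNF with IL10 gave -0.25, -0.08, -0.12 and -0.02 in the first 4 of these settings, -0.36 in the RAO-affected horses and -0.10 under 75th percentile scaling. TNF with IL6 gave -0.01 without slide 1 and group only, -0.12 with group only, -0.14 with nothing removed, -0.09 and -0.16 in the control and RAO-affected horses, and -0.04 without the 2 farthest horses. With 1 horse left out, r ran from -0.71 to -0.08 (RELA with IL6), -0.13 to 0.20 (RELA with IL10), 0.03 to 0.66 (TNF with IL6), -0.16 to 0.10 (TNF with IL10) and 0.17 to 0.38 (IL6 with IL10).

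The 569 probes past 2-fold and an unadjusted p under 0.05 became 268 with normexp (235 higher, 33 lower, 87.7% higher against 74.7%), 291 with the filter at all 14 arrays (240 and 51) and 1111 without slide 1 (878 and 233). With 1 horse left out they numbered 386 (without RAO-affected horse 14) to 1117 (without RAO-affected horse 4, 62.8% higher). No probe passed after limma adjustment in any of these. The NF-κB target genes higher at an unadjusted p numbered 5 to 8 with 1 horse left out, in fits that put 1533 (without RAO-affected horse 14) to 5043 (without RAO-affected horse 4) of all probes past that threshold in either direction. No paired analysis was run because the labels do not state which horses form pairs.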

Other observations

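Of the T helper cytokines, 8 of 11 were located and 7 tested. IL4, the type 2 helper cytokine, differed by -0.98 on the log2 scale, RAO-affected minus control (exact permutation p = 0.0297, limma adjusted p = 0.873). It alone of the 7 was lower at an unadjusted limma p under 0.05, against 2.76% of all probes. Its signal stood clear of background on all 7 control arrays, but on only 5 arrays of horses with RAO. The other 6 (IFNG, IL12A, IL17A, IL18, IL2 and IL5) did not pass at an unadjusted p, with differences from -0.25 (IFNG) to 0.35 (IL2). Of the regulatory genes, 2 of 10 were located, IL2RA (-0.28) and TGFB1 (-0.57), and neither passed. With slide as a block TGFB1 differed by -0.25 and was past the unadjusted limma threshold, as were 11.9% of all probes in that fit. LOC100033916, the secretoglobin most like IL10, differed by 1.33, past an unadjusted limma p of 0.05. No other airway epithelium marker of the 4 listed was located, and this gene only by its synonym.

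Of the housekeeping genes, 4 of 10 were located and none passed, with a median log2 difference of -0.03. ACTB, B2M and UBB were saturated on all 14 arrays, so their levels there are only bounds. The mast cell markers FCER1A (1.04) and TPSB2 (0.77), the T cell marker CD2 (-0.43), the natural killer marker GNLY (0.05) and the stromal DCN (0.19, saturated on 5 arrays) did not pass. CD2, the only located one of 6 T cell markers, was well above background in all 14 nodes.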
